A study of Mus musculus with 7 samples.

Results

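The endoplasmic reticulum (ER) unfolded protein response and the integrated stress response were examined through 36 genes in RNA-seq of LSK cells, the bone marrow cells with the surface phenotype Lin-Sca1+Kit+, among which hematopoietic stem cells and multipotent progenitors are found. The genes were taken by symbol, and 36 of the 24421 symbols in the table of counts matched. They were described as an ER branch of 21 genes (folding, sensing and degradation in the ER) and an Atf4 branch of 15 genes (the eIF2alpha kinases, Atf4 and the genes it controls). The study asked how the loss of 1 allele of Ddx41, which encodes a DEAD-box RNA helicase, affects hematopoietic progenitors. It compared 4 Ddx41+/+ samples (replicates 1 to 4) with 3 Ddx41+/- samples (replicates 6 to 8), with 1 recipient mouse per sample.

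Both genotypes shared the same handling. Donor bone marrow carried RosaCreERT2, a recombinase expressed from the ubiquitous Rosa26 locus and activated by tamoxifen, and was transplanted into lethally irradiated BoyJ recipients. The Ddx41+/- donors had 1 floxed and 1 wild-type Ddx41 allele, and the Ddx41+/+ donors had wild-type alleles only. According to the methods, the strains were held on a C57BL/6N background. All recipients received tamoxifen (1 mg a day for 5 days, in 2 rounds). LSK cells were collected at 8 weeks from transplantation. Cre was thus present in donor-derived cells of both genotypes and not in the host. The labels name no gate on donor cells, so residual host LSK cells may be included. The ages of the mice are not given in the sources used here. A further Ddx41+/- library, number 5, was removed by the submitters according to the name of the deposited table, and was not analysed here.

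The ER folds membrane and secreted proteins. When unfolded proteins accumulate there, the sensors Ern1 (IRE1alpha), Atf6 and Eif2ak3 (PERK) are released from the chaperone Hspa5 (BiP). Ern1 splices the Xbp1 mRNA, Atf6 is cleaved to a transcription factor, and together they raise chaperones, disulfide isomerases and the machinery that exports misfolded proteins for degradation. Eif2ak3, like the amino acid sensor Eif2ak4 (GCN2), phosphorylates eIF2alpha. That lowers translation in general while raising the translation of Atf4, a transcription factor for amino acid synthesis, amino acid transport and tRNA charging. In hematopoietic stem cells these pathways are known as regulators of survival under proteostatic stress. Counts of mRNA per gene hold no readout of Xbp1 splicing, Atf6 cleavage, eIF2alpha phosphorylation or Atf4 translation.

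The libraries held 32234499 to 43751290 counts. Levels are given as CPM, the counts divided by library size in mega-counts, with library sizes scaled by trimmed means of M values (TMM). Ddx41 itself had 92.8, 98.7, 93.2 and 107 CPM in the Ddx41+/+ and 68.1, 64.4 and 69.5 CPM in the Ddx41+/- samples. Every Ddx41+/- sample lay below every Ddx41+/+ sample, and the gene fell to 68.8% of its Ddx41+/+ level (log2 fold change -0.54 ± 0.07, adjusted p = 0.0052, edgeR's quasi-likelihood test, with ± giving the SE of each log2 fold change here and below). Of the defining LSK markers, Kit was present at 427 to 505 CPM and Ly6a, which encodes Sca1, at only 13.3 to 30.5 CPM. The granulocyte-monocyte genes were far higher, with Mpo at 12907 to 17264, Elane at 2075 to 3107, Prtn3 at 2072 to 2653 and Ctsg at 1557 to 1981 CPM. The name LSK here follows the sort given by the study, and the make-up of the samples was not tested. In such sorted bulk samples, more cells of a type and more RNA per cell cannot be told apart. Over all 13340 genes tested, the median log2 fold change was -0.0048.

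In the ER branch, 19 of 21 genes had a higher fitted level in Ddx41+/- cells, with a median log2 fold change of 0.21. In the Atf4 branch this held for 7 of 15 genes, with a median of -0.01. By edgeR's quasi-likelihood test, 16 of 21 ER genes were higher at an unadjusted p under 0.05, beside a background of 5.7% of all genes tested, and 0 were lower, beside 4.93%. Of the 15 Atf4 branch genes, 0 were higher and 0 were lower at that threshold. In 12 of 21 ER genes all Ddx41+/- samples lay above all Ddx41+/+ samples (4.85% of all genes), and in 0 all lay below (5.21% of all genes). In the Atf4 branch the genotypes overlapped in all 15 genes.

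After adjustment over all genes tested (Benjamini-Hochberg), 0 of the 36 genes passed 0.05 in edgeR, where the background was 0.12% for genes higher and 0.0975% for genes lower in Ddx41+/- cells. Hspa5 came closest, at an adjusted p of 0.0503. DESeq2, run on the same counts, called 4 of the 21 ER genes higher (Hspa5, Sdf2l1, Creld2 and Pdia4, with adjusted p of 0.000523, 0.00844, 0.0255 and 0.0496), beside 0.69% of all genes. limma-voom with sample quality weights called 1, Hspa5 (adjusted p = 0.0323), beside 0.18% of all genes. Both tools called 0 of the 15 Atf4 branch genes, at adjusted or unadjusted p. The calls of single ER genes thus rested on the test, and the genes below are described as higher by their values, not as changed. A difference between the branches was not tested, since the genes of a branch are not independent.

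**Figure D1:**
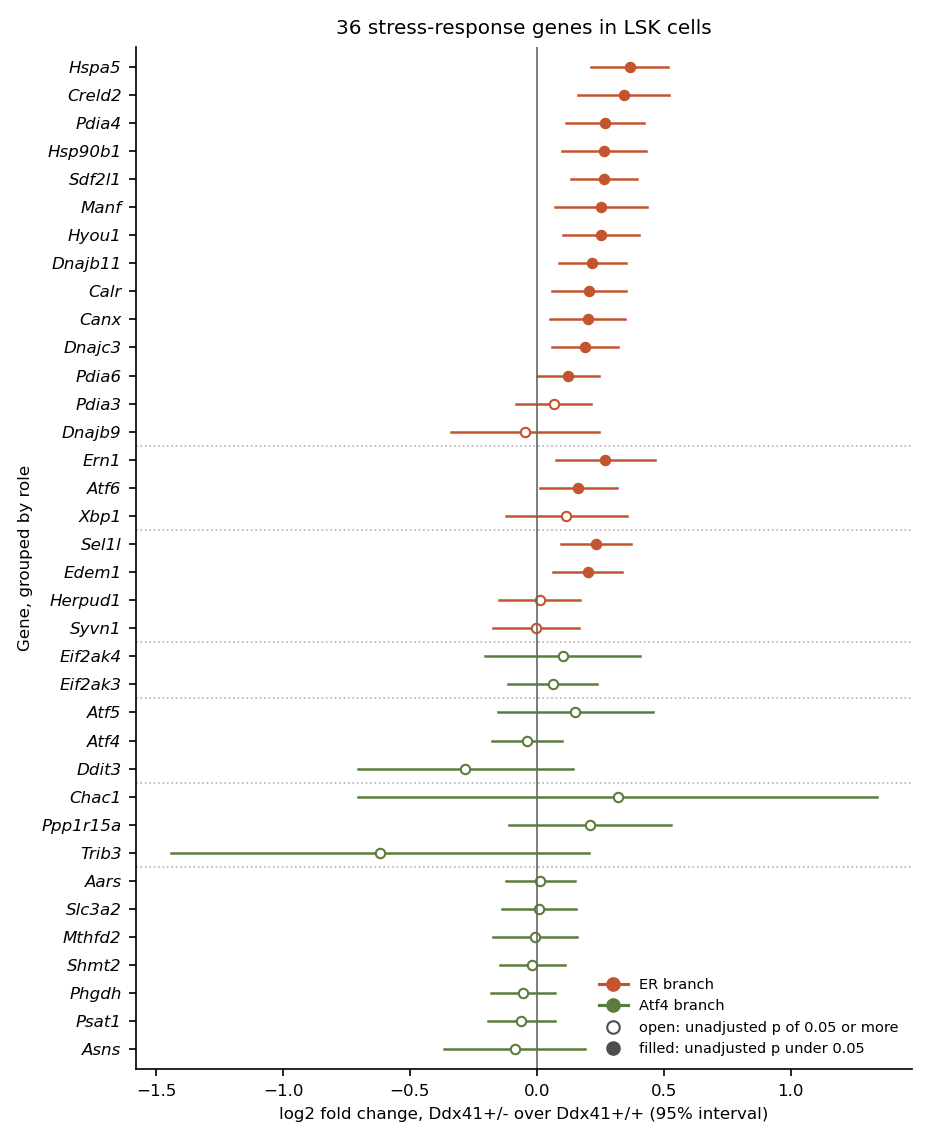
Log2 fold change of Ddx41+/- over Ddx41+/+ LSK cells for all 36 genes (points) with 95% intervals (lines) from edgeR, grouped by role, with ER branch genes in red and Atf4 branch genes in green. The filled points, with an unadjusted p under 0.05, are 16 ER branch genes, all to the right of 0, and the intervals of all 15 Atf4 branch genes cross 0.

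Promoters were searched for the known elements of each branch, because many of the ER genes were higher together. Windows of 300 bases (250 before and 50 after the annotated start) came from RefSeq on GRCm38.p6, which held 33 of the 36 genes. Manf, Hyou1 and Atf6 were not in it. The ER stress response element (ERSE) was searched as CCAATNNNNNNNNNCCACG and its second form (ERSE-II) as ATTGGNCCACG, in either orientation. ERSE is known to bind NF-Y at its CCAAT part and Atf6 or Xbp1 at its CCACG part. It was found in 8 of 18 ER branch windows (Calr, Canx, Creld2, Dnajc3, Hsp90b1, Hspa5, Pdia6 and Syvn1), in 0 of 18 Atf4 branch windows and in 0.119% of all 32851 windows. ERSE-II was found in Dnajb11 and Herpud1, and in 0.0365% of all windows. The stretches below show 6 of these matches, for the ER genes with the highest fold change or level and for 2 genes that hold an element and had a fold change near 0. Capitals mark the fixed letters of the element, and where the element lies on the other strand the capitals read CGTGG first and ATTGG last.
Hspa5 at chr2:34772015-34772053, plus strand: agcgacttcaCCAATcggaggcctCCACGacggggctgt
Creld2 at chr15:88819510-88819548, plus strand: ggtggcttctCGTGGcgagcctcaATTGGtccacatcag
Calr at chr8:84847065-84847103, minus strand: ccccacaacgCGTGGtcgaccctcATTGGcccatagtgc
Hsp90b1 at chr10:86705523-86705666, minus strand: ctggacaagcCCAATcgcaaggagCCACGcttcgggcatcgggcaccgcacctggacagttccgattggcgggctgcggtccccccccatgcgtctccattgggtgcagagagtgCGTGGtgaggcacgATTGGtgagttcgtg
Syvn1 at chr19:6046522-6046560, plus strand: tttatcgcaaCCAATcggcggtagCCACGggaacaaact
Herpud1 at chr8:94386367-94386397, plus strand: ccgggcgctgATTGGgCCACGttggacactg

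All 6 stretches lie upstream of the start annotated in RefSeq, and each is written 5′ to 3′ on the strand of its gene. Distances here are counted from that start. The span given below for Hspa5 comes from another annotation, GENCODE M21. It begins further upstream and includes the Hspa5 stretch. The element lay 65 bases before the start in Hspa5 and 44 in Syvn1, counted to its first base. Hsp90b1 held 2 elements in opposite orientations, 212 and 107 bases before its start. Of the 10 ER branch genes with either form, 9 had a positive log2 fold change and the median was 0.20. Of the 8 with a window and neither form, 7 had a positive one and the median was 0.22. Among genes outside the branches, 39 symbols held either form and 17 were tested, a set made after the values of the branches were seen. Of these, 2 (Derl3 and Lrif1) were higher and 0 lower at an unadjusted p under 0.05 in edgeR, beside 5.7% and 4.93% of all genes, and their median log2 fold change was 0.01. A match is a stretch of letters and was not tested for binding. The branches were made of known genes of these pathways, so a high share of windows with their known elements follows from that choice. It says nothing about the levels measured here. The XBP1 element searched as TGACGTGG was in 0 of the 36 branch windows and in 0.676% of all windows.

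For the Atf4 branch, the CEBP-ATF response element (CARE), which Atf4 is known to bind with a CEBP partner, was searched as TGATGNAA in either orientation. It was found in 4 of 18 Atf4 branch windows (Aars, Asns, Chac1 and Trib3), in 1 of 18 ER branch windows (Herpud1) and in 3.97% of all windows. Capitals again mark the fixed letters in the matches of Asns, the textbook target, and of Chac1, a gene with one of the lowest levels here.
Asns at chr6:7693215-7693242, minus strand: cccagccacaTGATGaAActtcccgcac
Chac1 at chr2:119351039-119351066, plus strand: ttccctgccgTTgCATCActcctgccag

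Hspa5 and Creld2 had the largest log2 fold changes of the ER branch, and the general chaperones are described first. Values below are listed in the order of replicates 1 to 4 for Ddx41+/+ and 6 to 8 for Ddx41+/- samples. Hspa5, the main Hsp70 chaperone of the ER lumen, lies at chr2:34771970-34777547, plus strand (GRCm38, GENCODE M21). It had 825, 895, 924 and 859 CPM in the Ddx41+/+ and 995, 1148 and 1242 CPM in the Ddx41+/- samples. The genotypes did not overlap, and the means were 876 ± 43.1 CPM in Ddx41+/+ (SD, n = 4) and 1128 ± 124 CPM in Ddx41+/- samples (SD, n = 3), a fold of 1.29 (log2 fold change 0.37 ± 0.07, adjusted p = 0.0503, 95% interval 0.21 to 0.52). Hsp90b1, the Hsp90 chaperone of the ER, had 861, 959, 973 and 862 CPM in the Ddx41+/+ and 961, 1217 and 1116 CPM in the Ddx41+/- samples. Replicate 6 lay within the Ddx41+/+ range and the other 2 Ddx41+/- samples above it (log2 fold change 0.26 ± 0.08, adjusted p = 0.226). Hyou1, an Hsp110-family exchange factor for Hspa5, had 379, 396, 359 and 379.9 CPM in the Ddx41+/+ and 402, 448 and 502 CPM in the Ddx41+/- samples. All Ddx41+/- samples were above the Ddx41+/+ range, and replicate 8 was the highest (log2 fold change 0.25 ± 0.07, adjusted p = 0.195).

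The lectin chaperones Calr and Canx hold glycoproteins until they are folded. Calr had the highest count per length of all 36 genes, 959.8 RPKM (CPM per kilobase of exon) in Ddx41+/+ cells, where Hspa5 had 207 RPKM. Calr had 2493, 2861, 2981 and 2722 CPM in the Ddx41+/+ and 3047, 3376 and 3146 CPM in the Ddx41+/- samples. Canx had 761, 816, 838 and 729 CPM in the Ddx41+/+ and 843, 989.7 and 876 CPM in the Ddx41+/- samples. In both genes the genotypes did not overlap, with the Ddx41+/- samples higher (Calr log2 fold change 0.21 ± 0.07, adjusted p = 0.296, and Canx log2 fold change 0.20 ± 0.07, adjusted p = 0.314). For both, Ddx41+/+ replicate 1 or 4 was the lowest sample and Ddx41+/- replicate 7 the highest.

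J-domain proteins guide clients to Hspa5. Dnajb11 had 137, 147, 147 and 141 CPM in the Ddx41+/+ and 156, 171 and 172 CPM in the Ddx41+/- samples (log2 fold change 0.22 ± 0.06, adjusted p = 0.207). Its partner Sdf2l1 had 114, 124, 121 and 121 CPM in the Ddx41+/+ and 138, 149 and 146 CPM in the Ddx41+/- samples (log2 fold change 0.26 ± 0.06, adjusted p = 0.103). Neither gene overlapped between genotypes, and in both replicate 6 was the lowest of the Ddx41+/- samples. Dnajc3, also an inhibitor of Eif2ak3, had 168, 174, 176 and 163 CPM in the Ddx41+/+ and 183, 197 and 204 CPM in the Ddx41+/- samples, again without overlap (log2 fold change 0.19 ± 0.06, adjusted p = 0.284). Dnajb9, a J-domain protein that holds Ern1 inactive and a widely used target of Xbp1, was an exception. It had 15.3, 22.3, 24.8 and 21.3 CPM in the Ddx41+/+ and 20.3, 19.7 and 20.6 CPM in the Ddx41+/- samples, and the Ddx41+/- samples lay inside the Ddx41+/+ range (log2 fold change -0.05 ± 0.14, adjusted p = 0.938). Ddx41+/+ replicate 1 was the lowest sample for Dnajb9, and without it the log2 fold change was -0.17.

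Manf and Creld2 are small ER proteins raised by ER stress, of which Manf binds Hspa5 and is also secreted. Manf had 137, 167, 170.3 and 163 CPM in the Ddx41+/+ and 173, 213 and 183 CPM in the Ddx41+/- samples, with no overlap and with Ddx41+/- replicate 7 the highest (log2 fold change 0.25 ± 0.09, adjusted p = 0.312). Creld2 had 54.2, 51.0, 50.3 and 49.7 CPM in the Ddx41+/+ and 58.3, 62.7 and 74.2 CPM in the Ddx41+/- samples. The genotypes did not overlap for Creld2, and Ddx41+/- replicate 8 stood above the others (log2 fold change 0.34 ± 0.08, adjusted p = 0.121).

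The protein disulfide isomerases, which form and rearrange disulfide bonds, had smaller fold changes except for Pdia4. Pdia4 had 207, 238, 225 and 218 CPM in the Ddx41+/+ and 237, 291 and 274 CPM in the Ddx41+/- samples. Replicate 6 lay within the Ddx41+/+ range and replicates 7 and 8 above it (log2 fold change 0.27 ± 0.07, adjusted p = 0.178). Pdia6 had 486, 512, 523 and 483 CPM in the Ddx41+/+ and 527, 549 and 559.6 CPM in the Ddx41+/- samples, without overlap and with a log2 fold change of 0.12 ± 0.06 (adjusted p = 0.46). Pdia3, the isomerase that works with Calr and Canx and the second highest gene per length at 273 RPKM, had 769.7, 904, 942 and 808 CPM in the Ddx41+/+ and 885, 924 and 879 CPM in the Ddx41+/- samples. All of its Ddx41+/- samples lay within the Ddx41+/+ range (log2 fold change 0.07 ± 0.07, adjusted p = 0.791). In all, 12 of the 14 folding and redox genes were higher at an unadjusted p under 0.05 in edgeR, beside 5.7% of all genes tested. Pdia3 and Dnajb9 were the exceptions.

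**Figure D2:**
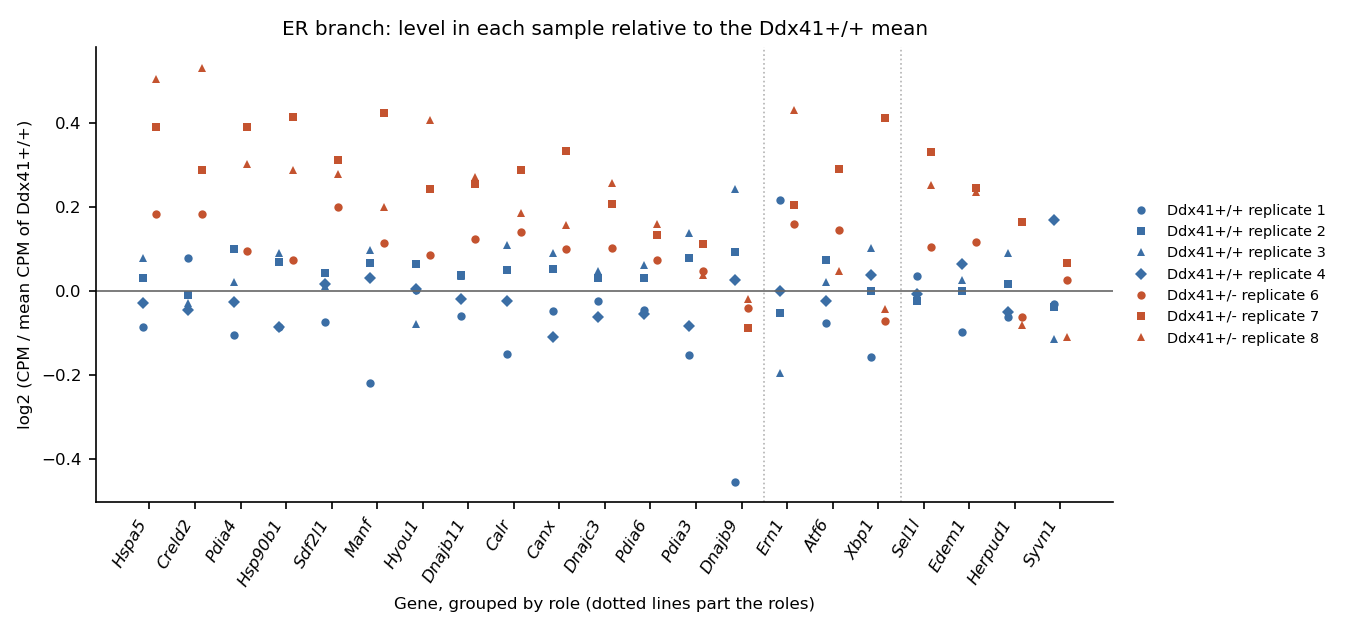
Level of each ER branch gene in each of the 7 samples as log2 of its CPM over the mean CPM of the Ddx41+/+ samples, with dotted lines between folding genes, sensors and degradation genes. The Ddx41+/- samples (red) sit above the Ddx41+/+ samples (blue) without overlap in 12 of 21 genes, and the highest sample is replicate 7 (red squares) in 11 genes and replicate 8 (red triangles) in 7.

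Among the sensors and transcription factors, Ern1 and Atf6 were higher at an unadjusted p under 0.05 and Xbp1 was not, and the genotypes overlapped in all 3. Ern1, the kinase and RNase that splices Xbp1, had 140.4, 117, 106 and 121 CPM in the Ddx41+/+ and 135, 139 and 163 CPM in the Ddx41+/- samples. Ddx41+/- replicates 6 and 7 lay below Ddx41+/+ replicate 1 and above the other Ddx41+/+ samples (log2 fold change 0.27 ± 0.09, adjusted p = 0.312). Atf6 had 99.6, 110.4, 106 and 103 CPM in the Ddx41+/+ and 116, 128 and 108 CPM in the Ddx41+/- samples, with replicate 8 inside the Ddx41+/+ range (log2 fold change 0.16 ± 0.07, adjusted p = 0.423). Xbp1 had 157, 175, 188 and 180.2 CPM in the Ddx41+/+ and 167, 233 and 170.3 CPM in the Ddx41+/- samples. Ddx41+/- replicate 7 was the highest sample for Xbp1, and replicates 6 and 8 lay within the Ddx41+/+ range (log2 fold change 0.12 ± 0.11, adjusted p = 0.762, 95% interval -0.12 to 0.36).

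The 4 genes of ER-associated degradation parted in pairs. Sel1l, the adaptor of the membrane ubiquitin ligase, had 135, 129.8, 131 and 131 CPM in the Ddx41+/+ and 142, 166 and 157 CPM in the Ddx41+/- samples. Edem1, which passes misfolded glycoproteins to that complex, had 129, 138, 141 and 145 CPM in the Ddx41+/+ and 149.9, 164 and 163 CPM in the Ddx41+/- samples. For both genes every Ddx41+/- sample lay above the Ddx41+/+ range (Sel1l log2 fold change 0.23 ± 0.07, adjusted p = 0.195, and Edem1 log2 fold change 0.20 ± 0.06, adjusted p = 0.28). Syvn1, the ligase itself (Hrd1), had 63.5, 63.1, 59.9 and 72.8 CPM in the Ddx41+/+ and 66.0, 67.9 and 60.1 CPM in the Ddx41+/- samples (log2 fold change -0.00 ± 0.08, adjusted p = 0.991). Herpud1, a scaffold of the complex and a classic ER stress target, had 82.1, 86.6, 91.1 and 82.7 CPM in the Ddx41+/+ and 82.0, 96.0 and 80.9 CPM in the Ddx41+/- samples (log2 fold change 0.01 ± 0.08, adjusted p = 0.976). The 95% intervals were -0.17 to 0.17 for Syvn1 and -0.15 to 0.17 for Herpud1, so that a log2 fold change of the size of Hspa5 lay outside both.

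The position of single samples within the ER branch was uneven. Ddx41+/+ replicate 1 was the lowest Ddx41+/+ sample in 13 of 21 genes and the lowest of all samples in 12. Ddx41+/- replicate 7 was the highest of all samples in 11 genes and replicate 8 in 7, whereas replicate 6 was in 0. Above the highest Ddx41+/+ sample lay replicate 6 in 13, replicate 7 in 17 and replicate 8 in 15 of the 21 genes. The summed level of the branch was 8214 to 9278 CPM in the Ddx41+/+ and 9482 to 10750.3 CPM in the Ddx41+/- samples, without overlap, and the mean log2 level relative to the gene means was -0.15 to -0.04 in the Ddx41+/+ and 0.01 to 0.18 in the Ddx41+/- samples. Without Ddx41+/- replicate 7, 12 of 21 genes were higher at an unadjusted p under 0.05 (3.76% of all genes then). Without Ddx41+/+ replicate 1 there were 14 (6.71% of all genes), and without both, 9 (5.29% of all genes). The median log2 fold change was 0.18, 0.18 and 0.15 in these fits, and none of the 21 genes was lower at that threshold.

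The Atf4 branch was led in level by Phgdh and Atf4, at 179 and 112 RPKM in Ddx41+/+ cells. The kinases Eif2ak3 and Eif2ak4 had overlapping levels. Eif2ak3, the ER-bound kinase, had 36.8, 38.4, 42.4 and 41.4 CPM in the Ddx41+/+ and 40.9, 41.1 and 42.4 CPM in the Ddx41+/- samples (log2 fold change 0.06 ± 0.08, adjusted p = 0.839). Eif2ak4, which senses uncharged tRNA, had 69.5, 57.5, 44.6 and 64.3 CPM in the Ddx41+/+ and 57.7, 59.4 and 72.9 CPM in the Ddx41+/- samples (log2 fold change 0.10 ± 0.14, adjusted p = 0.849). For Eif2ak4 the Ddx41+/+ samples alone spanned 44.6 to 69.5 CPM.

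Of the transcription factors, Atf4 had 242, 258, 278 and 280.2 CPM in the Ddx41+/+ and 269.7, 252 and 250.5 CPM in the Ddx41+/- samples. The Ddx41+/- samples lay inside the Ddx41+/+ range (log2 fold change -0.04 ± 0.06, adjusted p = 0.881, 95% interval -0.18 to 0.10), so that the mRNA of Atf4 differed by less than the spread between mice. Atf5, a relative of Atf4 that is also raised through eIF2alpha phosphorylation, had 11.1, 15.5, 13.7 and 16.4 CPM in the Ddx41+/+ and 16.6, 16.9 and 13.7 CPM in the Ddx41+/- samples (log2 fold change 0.15 ± 0.14, adjusted p = 0.764). Ddit3 (CHOP), the proapoptotic factor of sustained ER stress, had 4.88, 6.75, 8.24 and 8.20 CPM in the Ddx41+/+ and 5.86, 5.55 and 5.88 CPM in the Ddx41+/- samples. All Ddx41+/- samples were within the Ddx41+/+ range, which was wide for Ddit3 (log2 fold change -0.28 ± 0.20, adjusted p = 0.659, with 187 to 297 counts per library). Exons of Ddit3 overlap those of other annotated genes on the opposite strand, which adds an uncertainty to its counts. The same holds for further genes of both branches, which are named with the processing below.

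The feedback and late targets were low or variable. Ppp1r15a (GADD34), the phosphatase subunit that reverses eIF2alpha phosphorylation, had 41.5, 35.9, 47.8 and 56.8 CPM in the Ddx41+/+ and 46.5, 50.2 and 61.3 CPM in the Ddx41+/- samples (log2 fold change 0.21 ± 0.15, adjusted p = 0.657). Ddx41+/- replicate 8 and Ddx41+/+ replicate 4 were its highest samples. Trib3, a pseudokinase that represses Atf4 and Ddit3, had 1.81, 1.37, 2.08 and 1.63 CPM in the Ddx41+/+ and 1.498, 1.16 and 0.721 CPM in the Ddx41+/- samples, from 32 to 75 counts (log2 fold change -0.62 ± 0.39, adjusted p = 0.609). Chac1, which degrades glutathione, had 0.749, 0.802, 0.884 and 0.8287 CPM in the Ddx41+/+ and 0.711, 1.66 and 0.699 CPM in the Ddx41+/- samples, from 28 to 56 counts (log2 fold change 0.32 ± 0.48, adjusted p = 0.867). Its value in Ddx41+/- replicate 7 was the highest and the other 2 Ddx41+/- samples were the lowest. The 95% intervals were -1.44 to 0.21 for Trib3 and -0.70 to 1.34 for Chac1. Both SEs exceeded the log2 fold change of Hspa5 (0.37), so that a change of that size in either direction was not detectable for either gene.

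Of the 7 metabolic genes, Phgdh, the first enzyme of serine synthesis, had 462, 455, 433 and 431 CPM in the Ddx41+/+ and 458, 408 and 419.97 CPM in the Ddx41+/- samples (log2 fold change -0.05 ± 0.06, adjusted p = 0.802), and Psat1, the next enzyme, had means of 228 ± 10.2 CPM in Ddx41+/+ (SD, n = 4) and 218 ± 11.0 CPM in Ddx41+/- samples (SD, n = 3) (log2 fold change -0.06 ± 0.06, adjusted p = 0.784). Of the mitochondrial one-carbon enzymes, Shmt2 had means of 336 ± 10.9 CPM in Ddx41+/+ (SD, n = 4) and 332 ± 19.9 CPM in Ddx41+/- samples (SD, n = 3) (log2 fold change -0.02 ± 0.06, adjusted p = 0.948), and Mthfd2 had 48.7 ± 2.73 CPM in Ddx41+/+ (SD, n = 4) and 48.5 ± 2.28 CPM in Ddx41+/- samples (SD, n = 3) (log2 fold change -0.01 ± 0.08, adjusted p = 0.984). The means of Psat1, Shmt2 and Mthfd2 differed by less than the SD of either genotype. Phgdh had means of 445 ± 15.6 CPM in Ddx41+/+ (SD, n = 4) and 429 ± 26.0 CPM in Ddx41+/- samples (SD, n = 3). Its Ddx41+/- replicates 7 and 8 lay below the Ddx41+/+ range. Asns, which makes asparagine, had 46.0 ± 9.04 CPM in Ddx41+/+ (SD, n = 4) and 43.3 ± 3.32 CPM in Ddx41+/- samples (SD, n = 3) and the widest Ddx41+/+ spread of the 7 relative to its mean (log2 fold change -0.09 ± 0.13, adjusted p = 0.864). Aars, the alanyl-tRNA synthetase, had 165 ± 9.13 CPM in Ddx41+/+ (SD, n = 4) and 167 ± 7.16 CPM in Ddx41+/- samples (SD, n = 3) (log2 fold change 0.01 ± 0.06, adjusted p = 0.964). Slc3a2, the heavy chain of several amino acid transporters, had 175 ± 8.50 CPM in Ddx41+/+ (SD, n = 4) and 176 ± 14.9 CPM in Ddx41+/- samples (SD, n = 3) (log2 fold change 0.01 ± 0.07, adjusted p = 0.979). The median log2 fold change of the 7 was -0.02, with a range of -0.09 to 0.01.

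**Figure D3:**
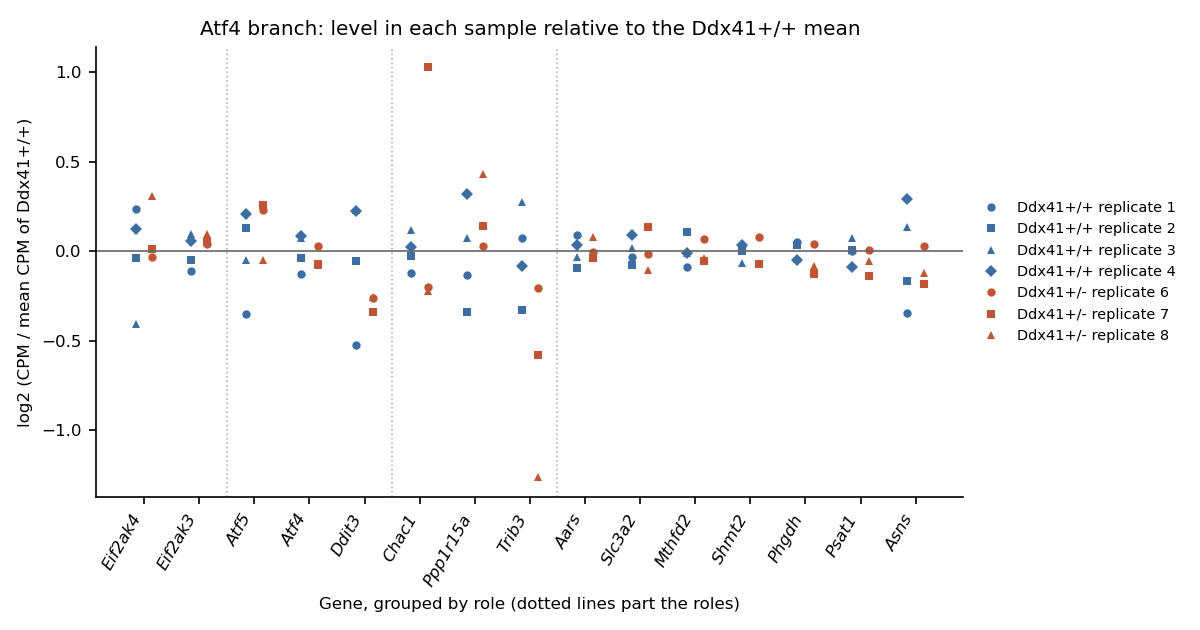
Level of each Atf4 branch gene in each sample as log2 of its CPM over the Ddx41+/+ mean, with dotted lines between kinases, transcription factors, feedback genes and metabolic genes. The genotypes overlap in all 15 genes, and the widest scatter is that of Trib3 and Chac1, whose libraries held 28 to 75 counts.

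ER branch genes spanned 8.20 RPKM (Dnajb9) to 959.8 RPKM (Calr) in Ddx41+/+ cells, and Atf4 branch genes 0.499 RPKM (Chac1) to 179 RPKM (Phgdh). The sensors were low beside the chaperones, with 14.8 RPKM for Ern1, 11.4 RPKM for Atf6 and 6.59 RPKM for Eif2ak3. Genes of like level in the 2 branches can be set side by side. Sdf2l1 and Shmt2, at 108 and 108 RPKM, had log2 fold changes of 0.26 ± 0.06 and -0.02 ± 0.06, and Hyou1 and Psat1, at 52.3 and 53.5 RPKM, had 0.25 ± 0.07 and -0.06 ± 0.06. These pairs were picked after the values were seen, and other pairs of like level did not part in this way. Xbp1, at 54.0 RPKM the ER gene nearest to Psat1, had 0.12 ± 0.11. Syvn1 and Mthfd2, at 13.3 and 14.0 RPKM, had -0.004 ± 0.08 and -0.01 ± 0.08. Dnajb9 and Eif2ak4, at 8.20 and 7.91 RPKM, had -0.05 ± 0.14 and 0.10 ± 0.14.

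**Figure D4:**
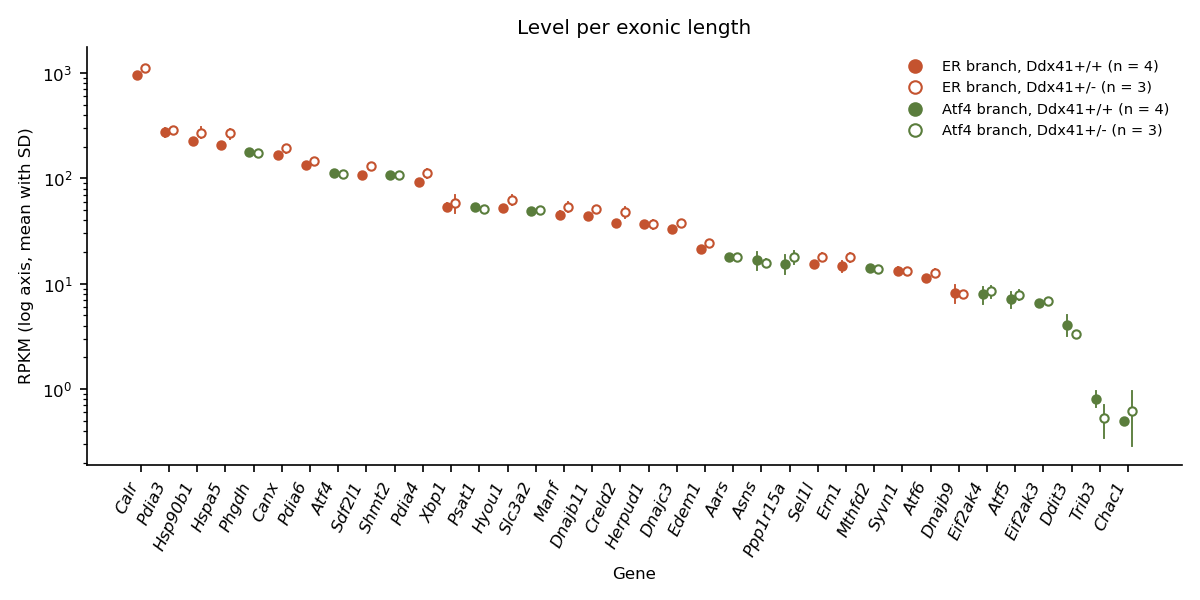
Level per exonic length (RPKM, log axis) of the 36 genes in Ddx41+/+ (filled, mean of 4 samples) and Ddx41+/- LSK cells (open, mean of 3), with lines for 1 SD, ordered by the Ddx41+/+ level. ER branch genes (red) and Atf4 branch genes (green) intermix from Phgdh at 179 RPKM down to Dnajb9 at 8.20 RPKM. Calr, Pdia3, Hsp90b1 and Hspa5 lie above that stretch, and Eif2ak4, Atf5, Eif2ak3, Ddit3, Trib3 and Chac1 below it.

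Further genes of the ER outside the branch were counted from a list of 65, of which 63 were tested. At an unadjusted p under 0.05 in edgeR, 9 were higher and 1 was lower in Ddx41+/- cells (background 5.7% and 4.93%), 0 passed the adjusted threshold in edgeR, DESeq2 or limma-voom, and the median log2 fold change was 0.05. Of the 17 folding and redox genes tested, 5 were higher. Ero1l, the oxidase that recharges disulfide isomerases, had 78.2, 83.7, 90.0 and 85.4 CPM in the Ddx41+/+ and 99.3, 91.4 and 114 CPM in the Ddx41+/- samples, without overlap (log2 fold change 0.27 ± 0.08, adjusted p = 0.235). Its paralog Ero1lb had 24.7, 28.5, 30.9 and 30.5 CPM in the Ddx41+/+ and 31.9, 37.2 and 35.5 CPM in the Ddx41+/- samples, also without overlap (log2 fold change 0.28 ± 0.10, adjusted p = 0.318). Uggt1, which returns unfolded glycoproteins to Calr and Canx, had 295, 305, 284 and 274 CPM in the Ddx41+/+ and 316, 329.96 and 339 CPM in the Ddx41+/- samples and did not overlap (log2 fold change 0.18 ± 0.06, adjusted p = 0.289).

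Of the 24 genes of translocation and glycosylation, 3 were higher at an unadjusted p under 0.05 in edgeR, beside 5.7% of all genes. Ssr1 and Ssr3 are subunits of the translocon-associated protein complex. Ssr1 had 439, 495, 488 and 464 CPM in the Ddx41+/+ and 531, 583 and 523 CPM in the Ddx41+/- samples (log2 fold change 0.21 ± 0.06, adjusted p = 0.236), and Ssr3 had 323, 381, 388 and 359.6 CPM in the Ddx41+/+ and 395, 496 and 409 CPM in the Ddx41+/- samples (log2 fold change 0.26 ± 0.08, adjusted p = 0.289). Neither overlapped between genotypes. Among 14 degradation genes 1 was higher and 1 lower, beside 5.7% and 4.93% of all genes. Derl3, a channel component typical of secretory cells, had 1.79, 2.12, 0.947 and 2.02 CPM in the Ddx41+/+ and 2.06, 6.79 and 1.65 CPM in the Ddx41+/- samples, so that replicate 7 alone stood above the rest. Of the 8 sensors and transcription factors tested in this list, 0 were higher or lower. The count of 9 was 5 without Ddx41+/- replicate 7 and 2 when Ddx41+/+ replicate 1 was left out as well, and 2 with a granulocyte-monocyte marker score as a covariate. Over all genes tested in those fits, 3.76%, 5.29% and 4.55% were higher at this threshold, and the counts of 2 amount to 3.17% of the list, below the shares over all genes.

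The wider list of the integrated stress response held 57 genes, of which 56 were in the table and 53 were tested. In edgeR, 1 was higher and 1 lower at an unadjusted p under 0.05, 0 passed the adjusted threshold, and the median log2 fold change was 0.02. Iars, the isoleucyl-tRNA synthetase, had 227, 208, 211 and 225 CPM in the Ddx41+/+ and 237, 235 and 244 CPM in the Ddx41+/- samples, without overlap (log2 fold change 0.13 ± 0.06, adjusted p = 0.437). Psph, the last enzyme of serine synthesis, had 28.5, 35.0, 38.0 and 32.8 CPM in the Ddx41+/+ and 27.1, 31.1 and 27.8 CPM in the Ddx41+/- samples, with overlap (log2 fold change -0.23 ± 0.10, adjusted p = 0.45). The share of 1.89% in each direction was below the background of 5.7% and 4.93%. Fgf21 was at 0 counts in all samples.

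Markers of other cells and of handling differed by genotype or in single samples, and their part in the ER branch values was not tested. The 8 granulocyte-monocyte progenitor genes were all fitted higher in Ddx41+/- cells (4 of 8 at an unadjusted p under 0.05 in edgeR), with a summed level of 19401 to 23369 CPM in the Ddx41+/+ and 24141 to 25536 CPM in the Ddx41+/- samples. The 10 mature neutrophil genes summed to 741 to 1255 CPM in the Ddx41+/+ and 1334 to 2283 CPM in the Ddx41+/- samples, with 9 of 10 higher at that threshold. Of the 8 LSK genes, 6 were lower at that threshold, and the list summed to 1632 to 1806 CPM in the Ddx41+/+ and 1498 to 1644 CPM in the Ddx41+/- samples. Over all genes tested, 5.7% were higher and 4.93% lower at that threshold. With the granulocyte-monocyte score as a covariate, 11 of 21 ER branch genes had an unadjusted p under 0.05 and a higher level (4.55% of all genes in that fit), with a median log2 fold change of 0.19. That score was itself mostly higher in Ddx41+/- samples (0.06 to 0.11, and -0.23 to 0.07 in Ddx41+/+ samples). In this fit its part thus cannot be fully told apart from that of genotype.

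Of the B lineage and plasma cell list, 10 of 12 genes were in the table, and they summed to 109 to 209 CPM in the Ddx41+/+ and 106 to 464 CPM in the Ddx41+/- samples. Plasma cells are rich in ER chaperones. Jchain had 35.3, 128, 69.1 and 56.2 CPM in the Ddx41+/+ and 26.0, 346 and 40.9 CPM in the Ddx41+/- samples, and Mzb1 had 3.36, 3.65, 1.89 and 2.96 CPM in the Ddx41+/+ and 2.28, 16.0 and 2.34 CPM in the Ddx41+/- samples. Both were highest in Ddx41+/- replicate 7, the sample that was also highest in 11 of 21 ER branch genes, whereas replicates 6 and 8 lay within or below the Ddx41+/+ range of Jchain. The part of these cells in the ER branch values was not tested. The 14 immediate-early genes, which respond to cell handling, summed to 475 to 1009.8 CPM in the Ddx41+/+ and 842 to 1392 CPM in the Ddx41+/- samples. Of these, 5 were higher at an unadjusted p under 0.05 in edgeR, beside 5.7% of all genes. Their log2 fold changes ran from -0.18 to 1.80, with a median of 0.59. The 11 heat-shock genes of the cytosol and mitochondria summed to 7954 to 8539 CPM in the Ddx41+/+ and 8444 to 9124 CPM in the Ddx41+/- samples, with 3 higher at that threshold. Their log2 fold changes ran from -0.06 to 2.28, with a median of 0.10. Hspa8, the cytosolic relative of Hspa5, had 1709.6, 1821, 1842 and 1759 CPM in the Ddx41+/+ and 1845, 2138 and 2037 CPM in the Ddx41+/- samples, without overlap (log2 fold change 0.17 ± 0.06, adjusted p = 0.336). Col1a1 of the 6 stroma and endothelium genes stood at 14.9 CPM in Ddx41+/- replicate 8 and at 0.822 to 2.20 CPM elsewhere.

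The macrophage and dendritic cell genes summed to 80.3 to 103 CPM in the Ddx41+/+ and 88.0 to 119 CPM in the Ddx41+/- samples, the megakaryocyte genes to 217 to 267 CPM in the Ddx41+/+ and 166 to 201 CPM in the Ddx41+/- samples, and the stroma and endothelium genes to 146 to 169 CPM in the Ddx41+/+ and 161 to 176 CPM in the Ddx41+/- samples (1 of 6 lower). The 6 T and NK cell genes in the table, of which 2 were tested, summed to 222 to 275 CPM in the Ddx41+/+ and 254 to 282 CPM in the Ddx41+/- samples. Nearly all of that sum was Nkg7 (221 to 272 CPM in the Ddx41+/+ and 250 to 281 CPM in the Ddx41+/- samples). Cd3d, Cd3e, Cd3g and Ncr1 had at most 0.386 CPM in any sample. The megakaryocyte sums did not overlap between genotypes, 3 of 6 of these genes were lower at an unadjusted p under 0.05 (4.93% of all genes), and Pf4 fell (log2 fold change -0.56 ± 0.10 SE, adjusted p = 0.0283 in edgeR). The 4 tested erythroid genes summed to 41.5 to 65.5 CPM in the Ddx41+/+ and 56.8 to 74.9 CPM in the Ddx41+/- samples, and Hba-a1, Hba-a2, Hbb-bs and Hbb-bt were listed at 0 in all samples.

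**Figure D5:**
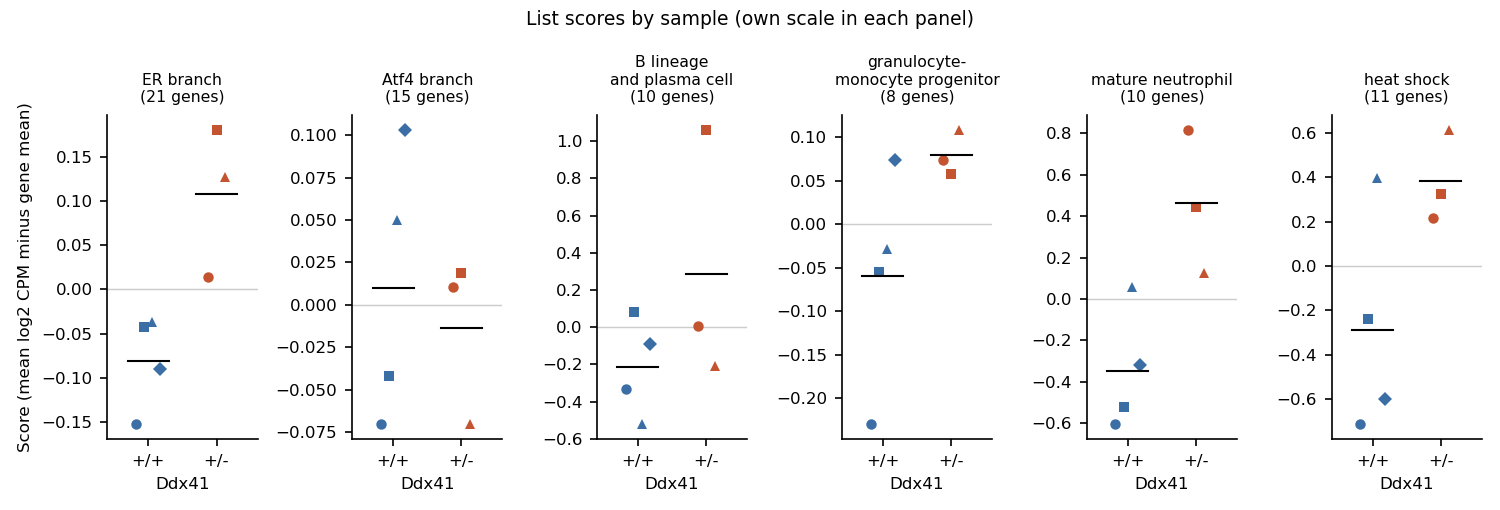
Scores of 6 gene lists in each sample (log2 CPM centred on each gene's own mean and averaged over the genes of the list, own scale in each panel), with circles, squares, triangles and diamonds for replicates 1 to 4 (blue) and circles, squares and triangles for 6 to 8 (red), and lines at the means. The ER branch and the mature neutrophil scores do not overlap between genotypes, the Atf4 branch, granulocyte-monocyte progenitor and heat shock scores do, and Ddx41+/- replicate 7 stands alone in the B lineage and plasma cell score.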

How the data were processed

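RNA-seq was performed on LSK cells of 4 Ddx41+/+ and 3 Ddx41+/- samples, grouped by the genotype in the labels. The authors deposited unnormalized counts, 1 row per gene symbol. The submitters' processing notes name FastQC 0.11.7, HISAT2 2.0.5, featureCounts 1.5.2 and the build mm10, without settings. The labels name a stranded kit and the study's methods another kit, so the use of strand in counting is unsettled. This bears on the 12 of 36 members that share exonic bases with a gene on the opposite strand in GENCODE M21 (GRCm38), the source of positions and lengths. They are Hsp90b1, Manf, Pdia3, Pdia6, Dnajb9, Syvn1, Aars, Atf5, Ddit3, Eif2ak3, Ppp1r15a and Shmt2. Hsp90b1, Manf and Aars also overlap a gene on their own strand. A further 1 (Pdia4) overlaps a gene on its own strand only. All 7 columns of counts were used, which left 0 unused.

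Total counts ranged from 32234499 to 43751290. All 13340 genes (of 24421) that passed filterByExpr entered edgeR 4.0.16 (R 4.3.3), with TMM scaling, a robust quasi-likelihood fit and a two-sided test, followed by Benjamini-Hochberg adjustment and a threshold of 0.05. All 36 members passed the filter. SEs were derived by dividing each log2 fold change, without its sign, by the root of its F statistic, and log2 CPM used a prior count of 2. RPKM values were computed from CPM and exonic length, and compare genes approximately.

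Alternatives were other scalings (median of ratios, library totals, upper quartile), no filter, DESeq2 1.42.0, limma-voom with quality weights (limma 3.58.1) and leaving out each sample. A further 2 were added after seeing the data, leaving out 2 samples together and a marker covariate. The fit was tested on simulated data. The members and lists were chosen with earlier results of these data known. Every member was named, values in every sample were given for sensors, transcription factors, the 2 members per branch with the highest count per length and members with an unadjusted p under 0.05 (and some others), and of the wider lists up to 5 genes per direction by smallest p, with Derl3, Lrif1 and Hspa8 added after their values were seen. The values of 1 gene that this rule names are not reported here. Each sample came from 1 mouse, and the p-values measure the spread between these mice. The study's methods do not state how many donors gave the marrow, so recipients that shared a donor cannot be identified.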

Additional observations from a re-analysis of the deposited data

How the results depend on the processing

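The 16 ER branch genes with an unadjusted p under 0.05 kept a positive log2 fold change in all 15 alternative fits, and the median of the branch stayed between 0.15 and 0.25. The number of ER branch genes higher at that threshold was 9 when Ddx41+/+ replicate 1 and Ddx41+/- replicate 7 were left out together, and 11 to 16 otherwise, beside 3.76% to 7.20% of all genes. The number with an adjusted p under 0.05 was 4 with DESeq2, 1 with limma-voom, 1 with no filter, and 0 to 1 when single samples were left out (1 without Ddx41+/- replicate 6, Hspa5). All genes with an adjusted p under 0.05 numbered 29, against 164 with DESeq2, 15 with library totals, 91 with no filter, 3 with the granulocyte-monocyte covariate and 7 to 41 when single samples were left out. The causes of these shifts were not tested.

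With the covariate, 2 Atf4 branch genes and 2 wider integrated stress response genes were lower at an unadjusted p under 0.05, and 2 wider ER genes and 2 wider integrated stress response genes were higher. The 2 Atf4 branch genes were Ddit3 (log2 fold change -0.62) and Asns (-0.36), and of all genes 3.34% were lower and 4.55% higher. With the 2 samples left out together, 2 wider ER genes were higher and 2 lower, and 6 wider integrated stress response genes were higher, against 5.29% higher and 3.97% lower of all genes. The number of wider integrated stress response genes that were higher was 0 with library totals or upper-quartile scaling. It was 5 with limma-voom (9.43% of the list, beside 6.80% of all genes) and 0 to 4 when single samples were left out. In those fits 0 to 1 Atf4 branch genes were higher and 0 to 1 lower, 5 to 13 wider ER genes were higher and 0 to 2 lower, and 0 to 2 wider integrated stress response genes were lower. Over all genes in the same fits, 3.76% to 7.20% were higher and 3.55% to 6.54% lower. The count of 13 wider ER genes, 20.3% of the list, came without Ddx41+/- replicate 6, where 7.20% of all genes were higher.

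Some genes changed sign, and not all of them had values near 0 in the main fit. The largest main log2 fold changes among them were Chac1 at 0.32 ± 0.48, Atf5 at 0.15 ± 0.14, Xbp1 at 0.12 ± 0.11 and Eif2ak4 at 0.10 ± 0.14. With the covariate, log2 fold changes were Atf5 at -0.058, Eif2ak3 at -0.025 and Slc3a2 at -0.023. With the 2 samples left out together, they were Atf5 at -0.0049, Chac1 at -0.25, Herpud1 at -0.091, Pdia3 at -0.0037, Shmt2 at 0.019, Slc3a2 at -0.069 and Xbp1 at -0.10. With library totals they were Aars at -0.0015, Herpud1 at -0.0036 and Slc3a2 at -0.0068, and with limma-voom Herpud1 was at -0.022 and Slc3a2 at -0.0011. Leaving out single samples gave Herpud1 -0.072 to 0.056, Slc3a2 -0.059 to 0.063, Mthfd2 -0.048 to 0.032, Aars -0.022 to 0.044, Dnajb9 -0.17 to 0.045, Eif2ak4 -0.012 to 0.19, Syvn1 -0.041 to 0.057, Asns -0.19 to 0.025, Xbp1 -0.057 to 0.20, Chac1 -0.21 to 0.53 and Shmt2 -0.069 to 0.0081.

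No paired analysis was possible because no replicate number occurs in both genotypes. With 3 Ddx41+/- mice, the precision is limited by the spread between mice, except for Trib3 and Chac1, where few counts add to it.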
